A study of Mus musculus with 32 samples.

Results

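The dopamine neuron genes described here are Slc6a3, Th, Ddc, Slc18a2, Nr4a2, Pitx3, Aldh1a1, En1, Ret and Drd2. They were taken by symbol, with every array probe set annotated to 1 of the 10 symbols alone. Slc18a2 was not measured, so 9 of the 10 genes, out of 12393 genes with a symbol of their own on the array, were followed on 10 of 22626 probe sets. Nr4a2 had 2 probe sets and the other 8 genes had 1 each. Messenger RNA was measured with short-oligonucleotide arrays in midbrain and medulla of mice that lack the cholecystokinin B receptor Cckbr (KO) and of control mice. Both genotypes were studied after chronic constriction injury (CCI), in which a nerve is loosely tied to give lasting neuropathic pain, and after a sham operation. The 8 groups were KO CCI, KO sham, control CCI and control sham, each in midbrain and in medulla, with 4 arrays per group. The design gives 16 animals, each with 1 midbrain and 1 medulla array. Strain, age, sex and the time after surgery are not stated in the sources used here. The tissue was labelled only midbrain or medulla, with no sorting of cells, so it also holds glia, vessels and many other neurons.

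Dopamine neurons convert tyrosine to L-DOPA with tyrosine hydroxylase (Th), the rate-limiting step, and L-DOPA to dopamine with aromatic amino acid decarboxylase (Ddc). The vesicular monoamine transporter (Slc18a2) loads dopamine into vesicles and the dopamine transporter (Slc6a3) takes it back up after release. The transcription factors Nr4a2 (Nurr1), Pitx3 and En1 specify and maintain these neurons, Ret is the signalling receptor of GDNF family ligands, Aldh1a1 is a retinaldehyde dehydrogenase of a ventral subset of the neurons, and the D2 receptor Drd2 acts as their autoreceptor. The cell bodies lie in the substantia nigra and the ventral tegmental area of the midbrain. The medulla has no such cell groups, but its noradrenaline and adrenaline neurons use Th and Ddc and its serotonin neurons use Ddc.

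By the RefSeq annotation of GRCm38.p6, Slc6a3 lies at chr13:73536128-73578672, Th at chr7:142892779-142899995 and Ddc at chr11:11814101-11898144. Nr4a2 lies at chr2:57106830-57124003, Pitx3 at chr19:46135281-46148325, En1 at chr1:120602487-120607991, Aldh1a1 at chr19:20492583-20643463, Ret at chr6:118151748-118197744 and Drd2 at chr9:49340360-49408177. RefSeq windows around a gene start, 250 bases before it and 50 after, were at hand for 9 of the 10 genes. They were searched on both strands for AAAGGTCA, the monomer element bound by Nr4a2 and its relatives, for TGACGTCA, the cyclic AMP response element, for TAATCC, a core read by Pitx factors, for TATAAA, and for GGGCGG, the GC box. The 250 bases before the start are shown for Slc6a3, Th and Ddc, the transporter and enzymes with the clearest regional difference below, read 5′ to 3′ on the gene's own strand with motif letters in capitals. These are chr13:73536497-73536746 on the plus strand for Slc6a3, chr7:142899996-142900245 on the minus strand for Th, and chr11:11898145-11898394 on the minus strand for the upstream of 2 Ddc starts. The start used for Slc6a3 lies inside the gene span given above, which begins upstream of this stretch, so the stretch precedes 1 annotated start and not the whole gene.
Slc6a3: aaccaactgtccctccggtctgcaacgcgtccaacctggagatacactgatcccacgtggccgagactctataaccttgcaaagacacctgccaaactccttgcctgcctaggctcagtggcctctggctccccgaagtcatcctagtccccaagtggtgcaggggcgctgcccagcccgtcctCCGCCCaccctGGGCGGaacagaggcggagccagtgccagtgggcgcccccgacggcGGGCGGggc
Th: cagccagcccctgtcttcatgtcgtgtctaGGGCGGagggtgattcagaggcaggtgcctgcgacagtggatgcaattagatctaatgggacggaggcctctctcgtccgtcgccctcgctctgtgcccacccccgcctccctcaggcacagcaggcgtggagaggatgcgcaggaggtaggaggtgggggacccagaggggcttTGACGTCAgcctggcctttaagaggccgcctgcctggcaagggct
Ddc: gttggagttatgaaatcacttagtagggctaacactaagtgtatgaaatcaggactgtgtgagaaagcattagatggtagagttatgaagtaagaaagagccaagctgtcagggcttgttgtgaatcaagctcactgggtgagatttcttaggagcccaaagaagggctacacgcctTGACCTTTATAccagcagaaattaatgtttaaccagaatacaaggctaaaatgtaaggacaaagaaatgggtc
The capitals mark 3 GC boxes in Slc6a3. In Th they mark a GC box that begins 220 bases before the start and the cyclic AMP response element that begins 45 bases before it. In Ddc they mark AAAGGTCA on the reverse strand, beginning 73 bases before the start and overlapping TATAAA on the reverse strand. The window of the other Ddc start, chr11:11890359-11890658, held none of the motifs searched. Which Ddc start dopamine neurons use was not measured. AAAGGTCA was in 1.51% of all 32851 windows, TGACGTCA in 1.79%, TAATCC in 7.06%, TATAAA in 13.6% and GGGCGG in 35.7%. Among the 9 genes with a window, AAAGGTCA was in 1 (Ddc), TGACGTCA in 2 (Th and Slc18a2), TATAAA in 2 (Ddc and Nr4a2), GGGCGG in 6 and TAATCC in 0. These counts are per gene over 11 windows, as Ddc and Aldh1a1 had 2 each, whereas the percentages are per window. These matches describe the letters of the windows, and binding was not measured.

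Each value is an array intensity on a linear scale with background taken off, so readings below 0 occur. Array medians lay between 91.1 and 100.1, and precision is set by having 4 arrays in each group. Cckbr checked the genotype label: its brighter probe set read -1.49 to 24.1 on the 16 KO arrays and 122 to 200.2 on the 16 control arrays. Of 14 hindbrain genes, 13 were lower in midbrain and 0 higher, led by Hoxb5 (log2 difference -4.11), so regional labels and regional markers went together. KO sham midbrain 2 and 4 and KO sham medulla 3 stood apart from the other arrays of their region on the first principal component. KO sham midbrain 2 and 4 scored 36 and 26.4 there, and KO sham midbrain 1 and 3 lay at the other end (-20.1 and -21.8). Fits without 2 and 4 thus keep KO sham arrays from that opposite end alone. By array number KO sham midbrain 4 and KO sham medulla 3 come from 1 animal, though not by title number. They had the highest shares of values at or under 0 (3.16% and 4.57%). In KO sham midbrain 2 the log2 ratio of the 3′ to the 5′ Actb probe set was 1.60, where no other array passed 0.78. The sample descriptions carry a number whose meaning is not stated, here called the array code. It takes 3 values: the first marks replicates 1 and 2 of all groups except control sham 1, the second marks replicates 3 and 4, and the third marks control sham 1 in both regions. Within the first code control sham is thus 1 array in each region. Fits with and without the arrays that stood apart, and within each code, stand beside the results they touch.

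Midbrain was compared with medulla first, to see where the dopamine neuron genes were detected. Slc6a3 and En1 were detected in midbrain and near background in medulla. Th, Ddc, Nr4a2 (on its dimmer probe set) and Drd2 were higher in midbrain with a level left in medulla. Aldh1a1 and Ret were slightly lower in midbrain than in medulla, and Pitx3 and the brighter Nr4a2 probe set did not pass the test. In all, 8 of the 10 probe sets passed at an adjusted p under 0.05, 6 higher and 2 lower in midbrain, where 21.5% of all 22626 probe sets passed (10.5% higher and 10.9% lower). Their median log2 difference was 0.83, against 0.0057 over all probe sets. Differences are in log2(intensity + 16) after quantile normalization, midbrain minus medulla averaged over the 4 groups of mice, from a limma fit over 32 arrays, and folds on this scale understate the change of dim genes. In bulk tissue, fewer cells of a type and less RNA per cell cannot be told apart.

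**Figure D1:**
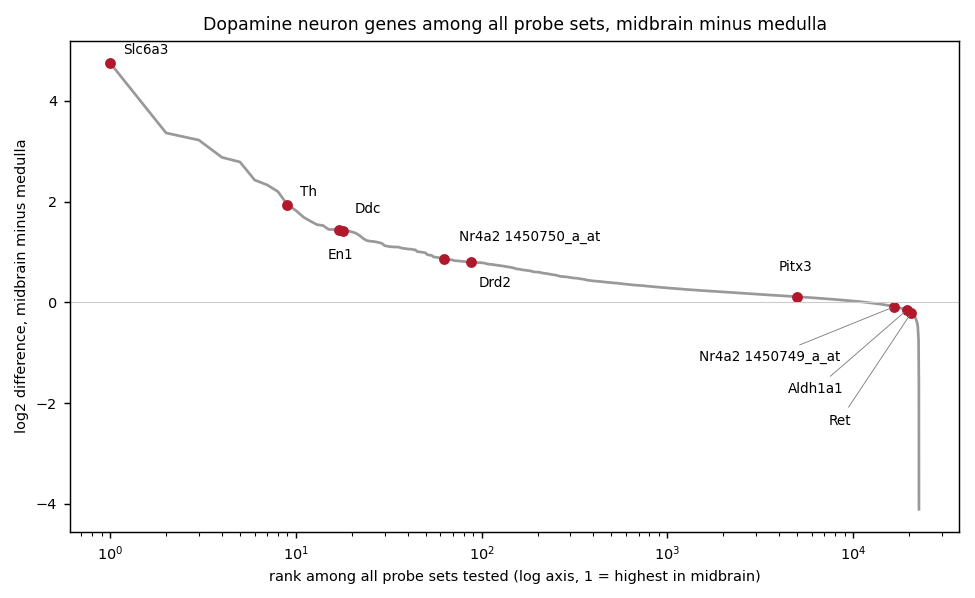
Log2 difference, midbrain minus medulla, of all 22626 probe sets (grey line) in order of rank from the highest in midbrain, on a log rank axis, with the 10 probe sets of dopamine neuron genes as red points. Slc6a3, at 4.75, and the other 5 probe sets that passed higher lie at the left end, while Pitx3 and the 3 points below 0 lie in the dense part of the distribution. Places depend on the pseudocount, since some genes are at background in medulla: with pseudocounts of 1, 16 and 64, Slc6a3 held rank 2, 1 and 1, Th 16, 9 and 9, Ddc 46, 18 and 11, and En1 10, 17 and 84.

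Slc6a3, which defines dopamine neurons by the reuptake of dopamine, was bright in every midbrain array and near 0 in every medulla array. In midbrain it read 529, 599, 480.0 and 637 in KO CCI mice, 569.9, 686, 499.9 and 592 in KO sham mice, 549, 541, 601 and 571 in control CCI mice, and 510.2, 501, 762 and 619.6 in control sham mice. In medulla it read 7.03, 9.09, 12.7 and 14.6 in KO CCI mice, 7.87, -7.60, 4.05 and 4.56 in KO sham mice, -4.26, 0.93, 16.4 and 11.6 in control CCI mice, and -2.85, -11.2, 9.48 and 4.19 in control sham mice. All 16 midbrain arrays lay far above all 16 medulla arrays, and 4 medulla arrays read below 0. The midbrain group means were 561 ± 70.2 in KO CCI, 587 ± 76.8 in KO sham, 565 ± 26.9 in control CCI and 598 ± 122 in control sham mice (SD, n = 4 each). The log2 difference was 4.75 (SE 0.093, adjusted p = 3.55e-24). Because the medulla level is at background, no fold is given, and the difference was 6.88 with a pseudocount of 1 and 3.18 with a pseudocount of 64.

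Th, the rate-limiting enzyme, was higher in midbrain with a clear level left in medulla. In midbrain it read 307, 332, 347 and 330.3 in KO CCI mice, 348, 324, 369 and 302 in KO sham mice, 335, 309, 328 and 360.4 in control CCI mice, and 399, 313, 430.4 and 352 in control sham mice. In medulla it read 97.1, 109, 60.9 and 98.4 in KO CCI mice, 63.99, 80.9, 45.7 and 51.4 in KO sham mice, 78.3, 54.2, 112 and 82.9 in control CCI mice, and 105, 73.5, 91.2 and 70.4 in control sham mice. The lowest midbrain array read 302 and the highest medulla array 112, so the regions did not overlap. Group means in midbrain were 329 ± 16.7 in KO CCI, 336 ± 28.96 in KO sham, 333 ± 21.3 in control CCI and 374 ± 51.9 in control sham mice, against 91.2 ± 20.9, 60.5 ± 15.6, 81.9 ± 23.8 and 84.99 ± 16.1 in medulla of the same groups (SD, n = 4 each). This was a 3.83-fold difference (log2 1.94, SE 0.077, adjusted p = 4.80e-17).

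Ddc, which makes dopamine and also serotonin, had the same order of regions. In midbrain it read 886, 956, 981 and 885 in KO CCI mice, 996, 800.5, 966 and 761 in KO sham mice, 926, 935, 872 and 889 in control CCI mice, and 868, 889.8, 1016 and 1071 in control sham mice. In medulla it read 376, 374, 382 and 273 in KO CCI mice, 345, 302, 243 and 252 in KO sham mice, 348, 323, 393 and 394 in control CCI mice, and 309, 307, 436 and 337 in control sham mice. Every midbrain array exceeded every medulla array, and the difference was 2.67-fold (log2 1.42, SE 0.059, adjusted p = 1.61e-16). Medulla RNA therefore held signal of Th and Ddc but Slc6a3 only at background. The other cell types that use Th or Ddc were measured by lists of markers, where 10.5% of all probe sets were higher and 10.9% lower in midbrain. Of 9 noradrenaline and adrenaline neuron genes, 2 were higher in midbrain (Tfap2b at 0.84 and Npy at 0.41) and 2 lower (the peptide Gal at -1.27 and the transcription factor Phox2a at -0.37). The summed level of that list was 822.5 to 1113 on midbrain arrays and 844.5 to 1179 on medulla arrays. Its defining genes Dbh, the enzyme that makes noradrenaline, and Slc6a2, the noradrenaline transporter, read -0.05 (adjusted p = 0.818) and -0.01 (0.932). Dbh spanned 81.8 to 177 on midbrain arrays and 35.3 to 208 on medulla arrays. Pnmt, the enzyme that makes adrenaline, was the brightest gene of the list, with means of 329 in midbrain and 291 in medulla. The summed level thus leans on a gene that was not lower in midbrain. Of 7 serotonin neuron genes, 3 were higher in midbrain, among them the serotonin transporter Slc6a4 at 1.07 and Gata3 at 1.52, and 0 lower. That list summed to 691 to 895 on midbrain arrays and 477 to 610.3 on medulla arrays, with Tph1 near 0 in both regions. Tph2 and Fev on that list were not measured. Gata2 there, and Tfap2b among the noradrenaline and adrenaline neuron genes, are also on the list of other midbrain neurons. Mean levels in midbrain and medulla were 142 and 40.1 for Gata3, 132 and 97.6 for Gata2, and 161 and 69.7 for Slc6a4. The part of these other cell types in the Th and Ddc results was not tested.

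The 3 transcription factors differed among themselves. En1, a homeobox gene of the embryonic midbrain and of adult dopamine neurons, was dim in midbrain and at background in medulla. In midbrain En1 read 46.7, 44.5, 51.8 and 47.5 in KO CCI mice, 33.9, 39.9, 40.97 and 65.9 in KO sham mice, 47.8, 33.1, 49.2 and 52.7 in control CCI mice, and 57.3, 33.9, 49.5 and 53.3 in control sham mice. In medulla it read 5.70, 9.57, 6.95 and 0.75 in KO CCI mice, 2.06, 13.8, -6.44 and 5.43 in KO sham mice, 10.9, 5.48, 10.3 and 3.08 in control CCI mice, and 7.61, 7.57, 29.1 and 9.09 in control sham mice. The highest medulla array (29.1, control sham 3) stayed below the lowest midbrain array (33.1, control CCI 2). The log2 difference was 1.43 (SE 0.11, adjusted p = 2.44e-11), with no fold given for the background level in medulla, and it ranged from 0.62 with a pseudocount of 64 to 2.83 with a pseudocount of 1.

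Nr4a2, the orphan nuclear receptor Nurr1, gave different answers on its 2 probe sets. The dimmer one read 93.3, 99.7, 88.8 and 115 in KO CCI mice, 89.5, 147, 91.5 and 73.9 in KO sham mice, 83.3, 80.4, 122 and 110.3 in control CCI mice, and 71.9, 101, 103 and 106 in control sham mice in midbrain. In medulla it read 43.5, 49.4, 47.9 and 47.3 in KO CCI mice, 35.7, 58.7, 36.4 and 54.7 in KO sham mice, 38.5, 45.9, 42.5 and 37.01 in control CCI mice, and 34.4, 57.3, 80.4 and 47.7 in control sham mice. The regions overlapped through 1 medulla array, control sham 3 at 80.4, which exceeded 3 midbrain arrays, the lowest of them control sham 1 at 71.9. The difference was 1.81-fold (log2 0.86, SE 0.088, adjusted p = 1.71e-08). The brighter probe set spanned 95.3 to 223 (median 144) on the 16 midbrain arrays and 111 to 197 (median 153) on the 16 medulla arrays. These ranges overlapped broadly, and the difference was -0.08 (95% interval -0.27 to 0.10, adjusted p = 0.583). The sources used here do not say where each set lies on the Nr4a2 transcript, so the 2 answers cannot be assigned to a part of the gene.

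Pitx3, a homeobox factor found in the brain almost only in dopamine neurons, was dim, with overlapping ranges in the 2 regions. Its probe set read 28.7 to 63.3 (median 42.8) on midbrain arrays and 22.8 to 64.2 (median 37.97) on medulla arrays. The difference was 0.11 (95% interval -0.09 to 0.31, adjusted p = 0.482), and at these levels a regional difference of a few intensity units was not detectable.

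Drd2, the autoreceptor of dopamine neurons, was higher in midbrain on every array. In midbrain it read 69.2, 84.2, 84.6 and 78.4 in KO CCI mice, 82.1, 134, 81.05 and 85.2 in KO sham mice, 110.2, 91.3, 101 and 81.8 in control CCI mice, and 91.4, 70.8, 102 and 91.2 in control sham mice. In medulla it read 50.4, 41.2, 53.03 and 47.3 in KO CCI mice, 39.7, 39.96, 39.1 and 34.7 in KO sham mice, 55.2, 46.4, 39.3 and 53.6 in control CCI mice, and 58.5, 36.96, 34.02 and 47.6 in control sham mice. One array, KO sham midbrain 2 at 134, stood above the rest of its group, which read 81.0 to 85.2. The difference was 1.74-fold (log2 0.80, SE 0.073, adjusted p = 1.80e-09), and 0.75 on the log2 scale without KO sham midbrain 2 and 4.

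Aldh1a1 and Ret, although used by dopamine neurons, were lower in midbrain. Aldh1a1 spanned 1668 to 2195 (median 1938) in midbrain and 1976 to 2569 (median 2158) in medulla. Its difference was -0.16 (SE 0.036, adjusted p = 0.00170), 1.12-fold lower, with overlapping regions. Ret spanned 56.5 to 107 (median 97.7) in midbrain and 95.5 to 123 (median 109.7) in medulla, a difference of -0.21 (SE 0.051, adjusted p = 0.00313), 1.16-fold lower, again with overlap. KO sham midbrain 2 had the lowest Ret value of all 32 arrays (56.5). Without KO sham midbrain 2 and 4 both still passed (Aldh1a1 at -0.14, adjusted p = 0.00514, and Ret at -0.16, adjusted p = 0.00643). Ret also serves motor neurons. Of 7 cholinergic and motor neuron genes 5 were lower in midbrain and 0 higher, where 10.9% of all probe sets were lower and 10.5% higher. The list was led by Prph at -1.71 and the vesicular acetylcholine transporter Slc18a3 at -1.26. That list summed to 588 to 805 on midbrain arrays and 958 to 1344 on medulla arrays, and its part in the Ret value was not tested.

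**Figure D2:**
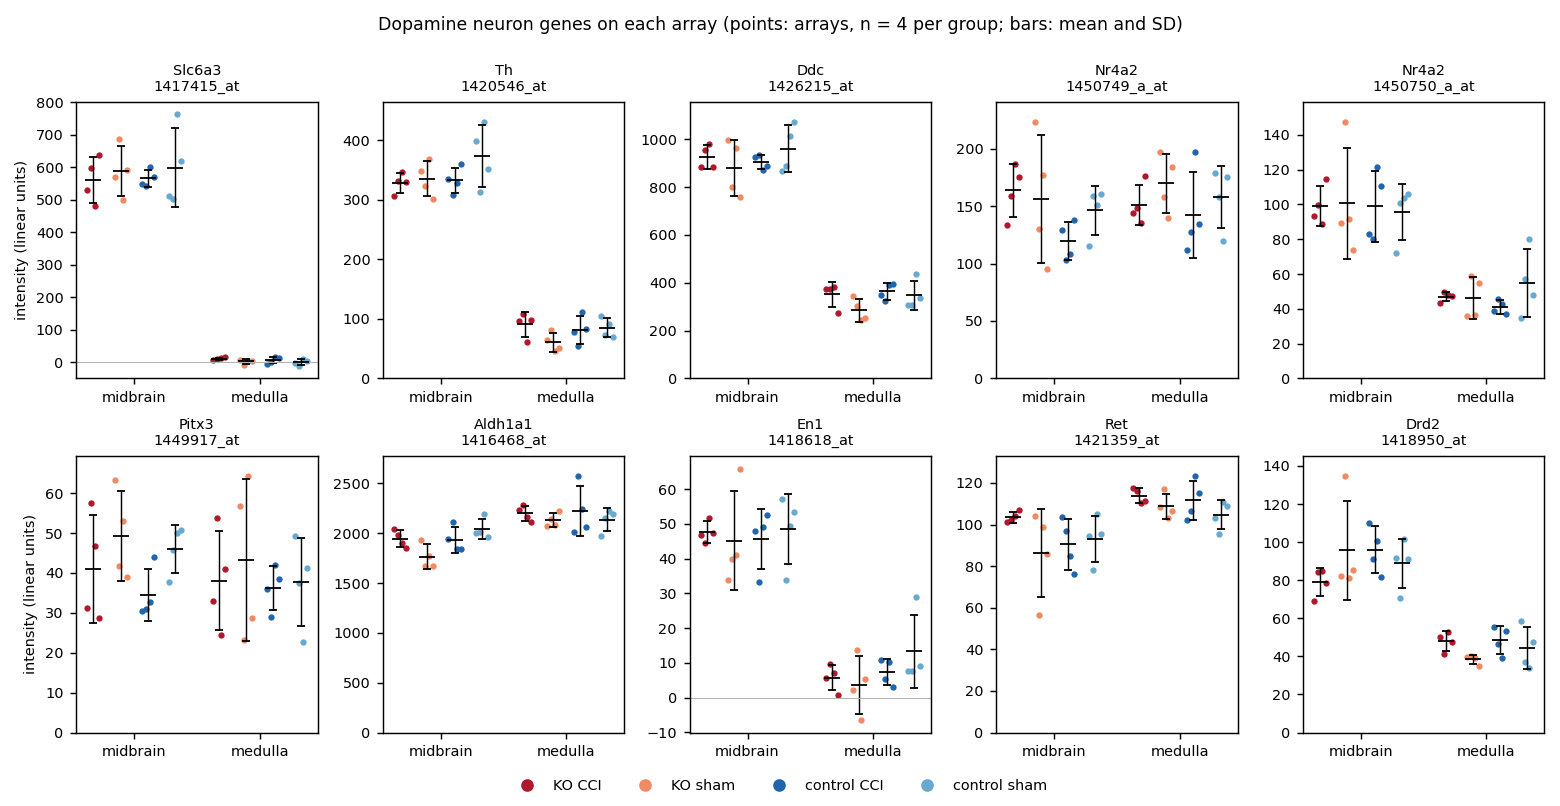
Intensity (linear units) of each probe set of the dopamine neuron genes on each array, with midbrain to the left of medulla and the groups KO CCI, KO sham, control CCI and control sham in that order. Points are arrays (4 per group) and bars are group mean and SD. Slc6a3, Th, Ddc, En1 and Drd2 separate the regions without overlap, whereas Pitx3 and the brighter Nr4a2 probe set, drawn left of the dimmer one, do not.

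On 5 of the 10 probe sets (Slc6a3, Th, Ddc, En1 and Drd2) all 16 midbrain arrays lay above all 16 medulla arrays, which 0.743% of all probe sets did, and on 0 of the 10 did they all lie below, which 0.725% did. Within the first array code the log2 differences were 4.95 for Slc6a3, 1.88 for Th, 1.41 for Ddc, 1.26 for En1, 0.85 for the dimmer Nr4a2 probe set and 0.83 for Drd2. Within the second code they were 4.54, 2.01, 1.43, 1.53, 0.85 and 0.80 in the same order, and all 6 passed within both codes. Aldh1a1 and Ret passed within the second code (-0.20 and -0.22) but not within the first code (-0.13, adjusted p = 0.289, and -0.22, adjusted p = 0.250). Each such fit held fewer than the 32 arrays.

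The regional difference was then examined in each group of mice by itself. The same 6 probe sets, of Slc6a3, Th, Ddc, En1, Nr4a2 (the dimmer one) and Drd2, were higher in midbrain in all 4 groups. In KO CCI mice 6 of 10 passed, all higher, where 4.77% of all probe sets did (2.08% higher and 2.69% lower). In KO sham mice 7 passed (background 7.09%, with 3.39% higher and 3.7% lower), the seventh being Aldh1a1, lower at -0.24 (adjusted p = 0.0397). With the animal as a replicate block, since both arrays of a mouse share it, 8 passed in KO sham mice, with Ret added at -0.31 (adjusted p = 0.0261). In control CCI mice 6 passed, all higher (4.38%, with 2.3% higher and 2.08% lower), and in control sham mice 6 passed, all higher (3.23%, with 1.6% higher and 1.63% lower). For Slc6a3 the difference was 4.41 in KO CCI, 4.87 in KO sham, 4.72 in control CCI and 5.002 in control sham mice (SE 0.19 each). For Th it was 1.70, 2.23, 1.85 and 1.97 in that order (SE 0.15 each), and for Ddc 1.395, 1.56, 1.29 and 1.42 (SE 0.12 each). For Drd2 it was 0.53 in KO CCI, 1.03 in KO sham, 0.81 in control CCI and 0.82 in control sham mice (SE 0.15 each). Within the first array code, with 1 or 2 arrays per group and region, the counts that passed were 3, 4, 3 and 3.

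**Figure D3:**
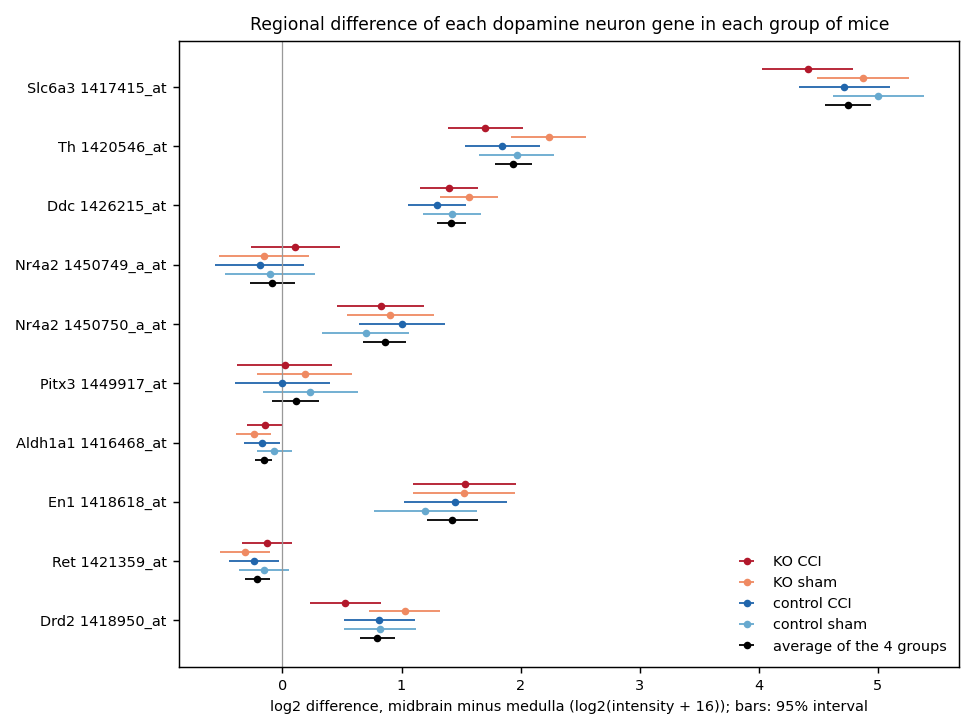
Log2 difference, midbrain minus medulla, of each probe set in each group of mice (colours) and averaged over the 4 groups (black), with 95% intervals and the brighter Nr4a2 probe set above the dimmer one. The 6 probe sets that passed in every group lie clear of 0, and intervals of the 4 groups overlap for each of them.

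Whether these groups differed from each other was tested by interaction terms. For genotype by region 0 of 10 passed, and the differences ranged from -0.22 for Slc6a3 to 0.20 for En1 (background 0%, with 861 probe sets and 0 of the 10 at an unadjusted p under 0.05). For CCI by region 0 of 10 passed in KO mice (background 0%) and 0 in control mice (0%). At an unadjusted p under 0.05 stood 2 of the 10 in KO mice, Th at -0.53 and Drd2 at -0.50, both at an adjusted p of 0.999 in limma's test, and 836 of all probe sets. In control mice 0 of the 10 and 410 of all probe sets did. Without KO sham midbrain 2 and 4 the Drd2 term was -0.29.

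Loss of Cckbr was examined next, since cholecystokinin is made by many midbrain dopamine neurons. In midbrain, averaged over CCI and sham mice, 0 of the 10 probe sets passed in limma's test (background 0.0309%, 7 probe sets). None of the 10 stood at an unadjusted p under 0.05, against 1690 of all probe sets. Slc6a3 averaged 574 ± 69.5 in KO midbrain and 582 ± 83.5 in control midbrain (SD, n = 8 each), a log2 difference of -0.02 (95% interval -0.22 to 0.19, adjusted p = 0.988). Th averaged 332 ± 22.2 in KO and 353 ± 42.6 in control midbrain, a difference of -0.07 (-0.22 to 0.08, adjusted p = 0.845). Ddc averaged 904 ± 86.95 in KO and 933 ± 73.6 in control midbrain, a difference of -0.05 (-0.20 to 0.11, adjusted p = 0.912). For each of these the KO and control arrays overlapped. A change of more than 0.22 on the log2 scale in either direction lay outside the 3 intervals. The array codes differed in sign for Slc6a3, which read 0.19 within the first code and -0.21 within the second code.

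Among the other genes in midbrain, Aldh1a1 had the narrowest interval and the brighter Nr4a2 probe set the widest. The largest difference was that of the brighter Nr4a2 probe set, 0.22 (95% interval -0.07 to 0.51, adjusted p = 0.758), with 160.0 ± 39.6 in KO and 133 ± 22.7 in control midbrain. It read 0.40 without KO sham midbrain 2 and 4. In limma's test its adjusted p of 0.110 there was the lowest of any of the 10 in any setting for this comparison. That fit kept KO sham midbrain 1 and 3, the highest of their group on this probe set (223 and 177, against 130 and 95.3). The dimmer Nr4a2 probe set read 0.01 (-0.25 to 0.28). Drd2 read -0.10 (-0.33 to 0.13), Aldh1a1 -0.09 (-0.20 to 0.02, adjusted p = 0.740), En1 -0.06 (-0.30 to 0.18), Pitx3 0.06 (-0.15 to 0.28) and Ret 0.02 (-0.17 to 0.21). Within the first array code the 10 values ran from -0.06 for Aldh1a1 to 0.22 for Pitx3, and within the second code from -0.24 for the dimmer Nr4a2 probe set to 0.14 for the brighter one.

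In sham mice alone 0 of 10 passed in midbrain (background 0.0133%, and 1917 probe sets at an unadjusted p under 0.05). Aldh1a1 was the 1 gene of the set at an unadjusted p under 0.05. It read 1934, 1668, 1776 and 1673 in KO sham midbrain, against 2005, 2009.8, 2195 and 1964 in control sham midbrain. All 4 KO arrays lay below all 4 control arrays, and the difference was -0.19 (95% interval -0.34 to -0.03, adjusted p = 0.554). It was -0.12 without KO sham midbrain 2 and 4, and -0.09 within the first and -0.28 within the second array code. Within the first code it is a difference from 1 control sham array. In CCI mice 0 of 10 passed (background 0.00884%), with 0 of the 10 and 1121 of all probe sets at an unadjusted p under 0.05, and Aldh1a1 read 2043, 1983, 1900.4 and 1854 in KO CCI midbrain and 1941, 2116, 1837 and 1845 in control CCI midbrain, where the groups overlapped. The largest difference in CCI midbrain was that of the brighter Nr4a2 probe set, which read 134, 159, 187 and 175 in KO CCI and 129, 103, 109 and 138 in control CCI midbrain. These groups also overlapped, and the difference was 0.39 (95% interval -0.02 to 0.81, adjusted p = 0.966). The genotype by CCI interaction in midbrain passed for 0 of 10 (background 0%), with 0 of the 10 and 1239 of all probe sets at an unadjusted p under 0.05.

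In medulla the genotype comparison also gave 0 of 10, averaged over operation (background 0.053%, and 0 of the 10 and 761 of all probe sets at an unadjusted p under 0.05), in sham mice (0.0133%, with 1 of the 10 and 865 of all at that p) and in CCI mice (0.00442%, with 0 of the 10 and 553 of all). The averaged differences ran from -0.26 for En1 to 0.20 for Slc6a3, both of which are at background there. The 1 gene in sham medulla was Th. It read 63.99, 80.9, 45.7 and 51.4 in KO sham medulla, against 105, 73.5, 91.2 and 70.4 in control sham medulla. The groups overlapped, and the difference of -0.41 (95% interval -0.81 to -0.01, adjusted p = 0.996) was -0.03 within the first array code and -0.55 within the second code. Within the first code it is a difference from 1 control sham array. KO sham medulla 3, the array that stood apart, held the lowest Th value, and without it the difference was -0.34.

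Nerve injury was compared with sham within each genotype. In midbrain 0 of 10 passed in KO mice and 0 of 10 in control mice (background 0% in both). At an unadjusted p under 0.05 stood 0 of the 10 in either genotype, against 1864 of all probe sets in KO and 681 in control mice. Slc6a3 read -0.07 after CCI in KO midbrain (95% interval -0.36 to 0.23) and -0.09 in control midbrain (-0.38 to 0.21). Th read -0.04 (-0.24 to 0.17) in KO and -0.18 (-0.38 to 0.03, adjusted p = 1) in control midbrain, and Ddc read 0.07 (-0.15 to 0.29) and -0.09 (-0.31 to 0.13). The 10 values lay between -0.23 and 0.23 in KO and between -0.26 and 0.12 in control midbrain.

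In medulla CCI also gave 0 of 10 in KO mice and 0 of 10 in control mice (background 0% in both), with 962 and 632 of all probe sets at an unadjusted p under 0.05. Th was the 1 gene of the set at that p in KO medulla. It read 97.1, 109, 60.9 and 98.4 in KO CCI medulla, against 63.99, 80.9, 45.7 and 51.4 in KO sham medulla. The groups overlapped through KO CCI 3 (60.9), and the difference was 0.50 (95% interval 0.09 to 0.90, adjusted p = 0.992). It was 0.43 without KO sham medulla 3, and 0.47 within the first and 0.52 within the second array code. In control medulla Th read -0.05 (-0.46 to 0.35), and the genotype by CCI interaction for Th in medulla was 0.55 (95% interval -0.02 to 1.12, adjusted p = 0.9998). All 10 probe sets stayed short of the threshold in that interaction (background 0%, with 601 of all probe sets and 0 of the 10 at an unadjusted p under 0.05).

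**Figure D4:**
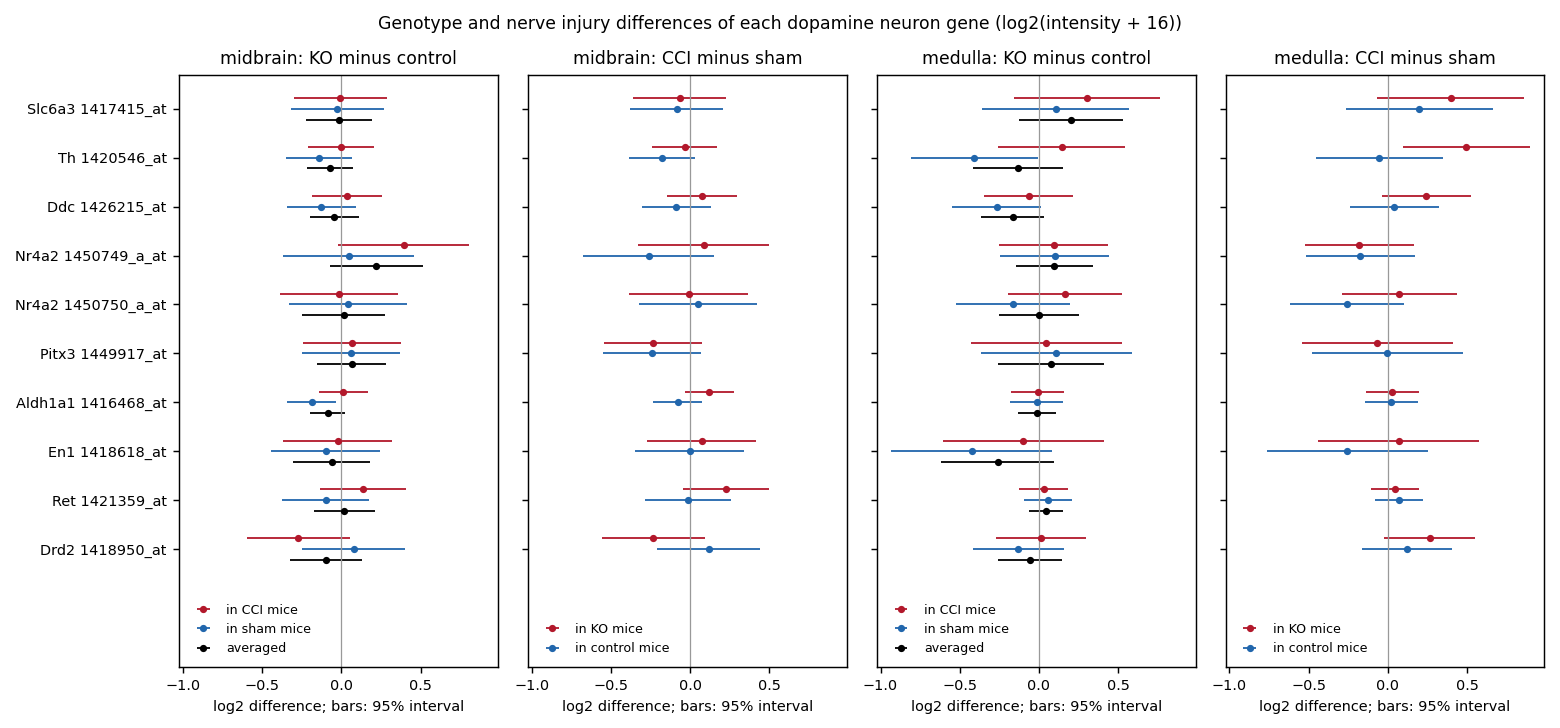
Log2 differences of each probe set for KO minus control and for CCI minus sham, in midbrain (left pair of panels) and medulla (right pair), with 95% intervals from the fit of each region. Most intervals include 0. Those that do not, Aldh1a1 for genotype in sham midbrain and Th for genotype in sham medulla and for CCI in KO medulla, did not pass after adjustment over 22626 probe sets.

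Variation between animals was examined among the 16 midbrain arrays after subtraction of group means. To see whether the genes rose and fell together from animal to animal, each was correlated with Slc6a3, on the brighter probe set per gene. In a permutation test within groups, 0 of 8 genes passed after adjustment over the 8. Drd2 came closest, with Pearson's r = 0.64 (permutation p = 0.0287, adjusted p = 0.230) and Spearman's rho = 0.59 (permutation p = 0.0326, adjusted p = 0.261, n = 16). Without the 2 arrays farthest out in Slc6a3, control sham midbrain 3 and KO sham midbrain 2, r was 0.24. These arrays were chosen by Slc6a3 itself, so their removal narrows its range. Without 1 array in turn r for Drd2 was 0.43 to 0.74. For Drd2 r was 0.95 within the first array code (n = 7) and 0.11 within the second code (n = 8). Group means were taken off again within each code, from at most 2 arrays per group, so both values rest on few free differences. In the first code the 1 control sham array adds nothing, and KO sham midbrain 2 is among the 7. The codes can therefore not be compared by these values. In the permutation test the adjusted p of Drd2 was 0.0452 when KO CCI midbrain 3 was left out (r = 0.74). For Th r was 0.26 (permutation p = 0.486, adjusted p = 0.999) and for Ddc 0.11 (permutation p = 0.765, adjusted p = 0.999), and the other 5 lay between -0.16 for Ret and 0.11 for Aldh1a1. Spearman's rho was 0.11 for Th and 0.25 for Ddc (adjusted p = 1 for both).

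Other pairs are given as a description, since the 16 arrays share groups, array codes and RNA quality. Each value over all 16 arrays is followed by the one without KO sham midbrain 2 and 4. The KO sham arrays left, 1 and 3, lie at the opposite end of the first principal component. The dimmer Nr4a2 probe set followed Slc6a3 (r = 0.67, then 0.55), and Slc6a3 with Drd2 went to 0.43 without those arrays. Ddc went with the brighter Nr4a2 probe set (0.77, then 0.45), with Aldh1a1 (0.60, then 0.35) and with Th (0.57, then 0.31). Aldh1a1 and En1 ran opposite (-0.67, then -0.45), the 2 Nr4a2 probe sets read 0.20, then 0.37, and Ret with Drd2 turned over (-0.24, then 0.83). The Actb 3′ to 5′ ratio, a sign of RNA quality on which KO sham midbrain 2 was far out, correlated with the dimmer Nr4a2 probe set (0.83, then 0.68), Drd2 (0.81, then 0.35), Ret (-0.69, then -0.03) and Slc6a3 (0.63, then 0.52). The first principal component of the midbrain arrays correlated with Ddc (-0.77, then -0.75), Ret (-0.73, then -0.45) and the brighter Nr4a2 probe set (-0.72, then -0.43). The part of RNA quality in these correlations was not tested.

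**Figure D5:**
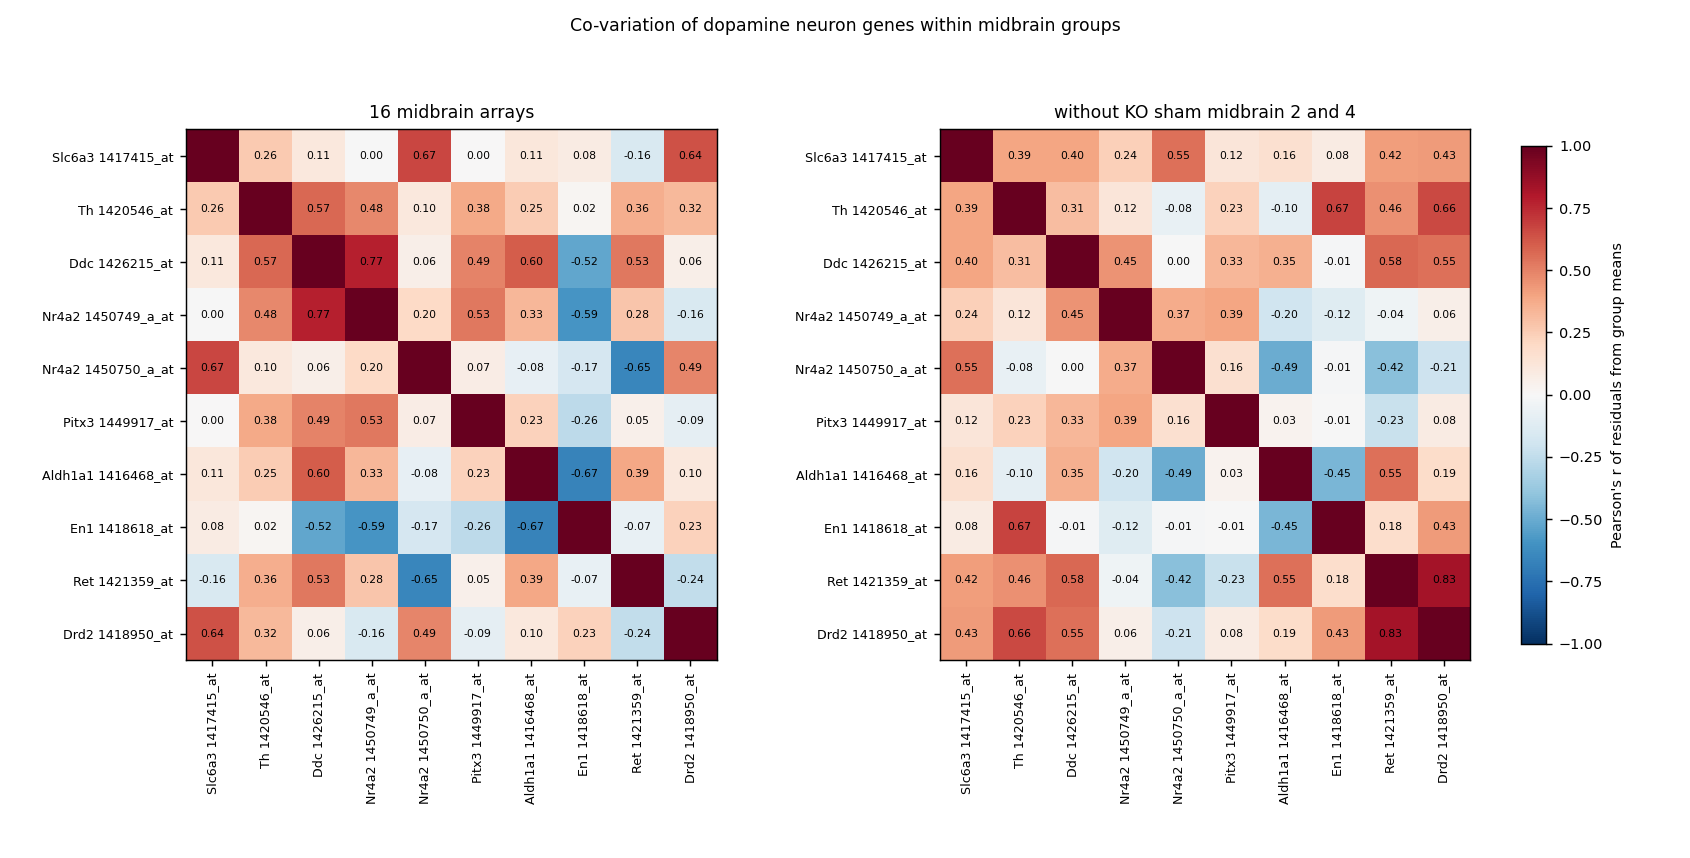
Pearson's r between probe sets of the dopamine neuron genes across midbrain arrays, after subtraction of group means, over all 16 arrays (left) and without KO sham midbrain 2 and 4 (right). Red is positive and blue negative. Slc6a3 with Drd2 reads 0.64 on the left and 0.43 on the right, and Ret with Drd2 reads -0.24 on the left and 0.83 on the right.

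The 10 genes whose residuals were most like both Slc6a3 and Th, by the mean of the 2 correlations over the 16 midbrain arrays, were Dmtf1, Ube2c, Gas5, Kdr, Rab10, Hdac6, Ctdspl, Gnao1, Vmn1r47 and Fmn2. Their mean r ran from 0.69 for Dmtf1 to 0.64 for Fmn2, out of 12391 genes ranked. None of them belongs to the dopamine neuron genes followed here. Drd2 ranked 297, Ddc 1227, Nr4a2 2409, Pitx3 3219, Aldh1a1 3372, Ret 4820 and En1 5810 on the same measure.

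Further genes of the dopamine system were read from lists, on 1 probe set per gene and for midbrain against medulla. Of 36 other genes enriched in dopamine neurons, 21 were higher and 4 lower in midbrain, with a median of 0.34 and a lowest value of -0.80. Over all probe sets 10.5% were higher and 10.9% lower. The largest were the peptide Cartpt at 2.20, the forkhead factor Foxa1 at 1.82, the nicotinic receptor subunit Chrna6 at 1.05 and the En1 relative En2 at 0.85. Cartpt averaged 870 in midbrain and 179 in medulla, while Sncg went the other way, at 440 and 780. The tissue was not sorted, so which cells held the RNA of these genes was not measured. This list shares Slc17a6 and Calb2 with the thalamic genes counted below. It also shares Foxa1, En2, Lmx1b and Sox6 with the transcription factors that follow. Of 17 dopamine neuron transcription factors, 4 were higher (Foxa1, Otx2 at 1.20, En2 and Foxa2 at 0.80) and 2 lower. Their median was 0.11 and their lowest value -0.30. Foxa1 read 26.5 to 73.6 on the midbrain arrays and -0.82 to 8.68 on the medulla arrays.

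Of 8 synthesis, cofactor and breakdown enzymes around the pathway, 2 were higher and 2 lower in midbrain (median -0.08), where 21.5% of all probe sets passed in either direction. The higher ones were Gch1 at 0.35, which makes the tetrahydrobiopterin cofactor of Th, and Pcbd1 at 0.40, which recycles it, and the lower ones Maoa, which breaks down monoamines, at -0.15 and Qdpr at -0.10. Of 6 dopamine receptors and signalling genes, Kcnj9 at 0.33 and Rgs9 at 0.28 were higher and Ppp1r1b (DARPP-32) was lower at -0.49 (median 0.15). Of 18 genes of the GDNF family and other trophic factors and receptors, 7 were higher and 1 lower (median 0.11). They were led by Bdnf at 0.71, Ncam1 at 0.48, Igf1 at 0.44 and Gfra2 at 0.38, the last a co-receptor of Ret that binds neurturin. Outside the comparisons of regions, 0 genes of these lists passed for genotype, CCI or an interaction.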

How the data were processed

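RNA of 32 dissected midbrain and medulla samples was extracted with TRIzol and hybridised as biotinylated cRNA to Affymetrix mouse 430A 2.0 arrays, per the labels' protocols. The authors deposited 1 background-subtracted intensity per probe set and array on a linear scale, and which software scaled it is not stated. Of 22690 probe sets, 64 controls were left out. Values under 0 (2.15% were at or under 0) were set to 0, 16 was added, and log2 values were quantile-normalized. Limma 3.58.1 (R 4.3.3) fitted group means, over 16 arrays within a region and over 32 between regions, with Benjamini-Hochberg adjustment over 22626 probe sets and a threshold of 0.05. No filter on low values was used, and all 10 probe sets of the 9 genes were tested. Correlations used 100000 permutations within groups (Python 3.11.15, numpy 2.4.6). Symbols came from the platform annotation, updated through RefSeq, and promoter windows from RefSeq (GRCm38.p6). The script was tested on simulated data.

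The dopamine neuron genes and all lists were chosen with earlier results of these data known. Outside the 10 genes, those named are the 10 most like Slc6a3 and Th and up to 4 per list by absolute regional difference. Defining markers of noradrenaline and adrenaline neurons, Sncg, Tph1, Cckbr and genes shared between lists are also named. Dbh, Slc6a2, Pnmt, Sncg and Tph1 were added after their values were seen. Arrays of a group come from separate animals per the design. Residuals of the 2 arrays of an animal, matched by array number, correlated at 0.172 on average (16 pairs, -0.0497 to 0.364), and those of arrays that share only a title number across groups at 0.066 in midbrain and 0.0419 in medulla. For KO sham 3 and 4 title and array number disagree. Alternatives were median centring, quantile normalization within a region or before the floor, pseudocounts of 1 and 64, omission of the dimmest probe sets, a trended robust variance, array weights, only the groups compared, the array code as a block or within it, replicate blocks, 1 probe set per gene, and omission of arrays.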

Additional observations from a re-analysis of the deposited data

Results flagged for a closer look

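In 5 of 80 groups of 4 arrays checked (10 probe sets in 8 groups), 1 array lay far from the other 3, by a gap whose share of the group's range exceeded Dixon's critical value, at which chance flags about 1 in 20 groups. Drd2 in KO sham midbrain 2 read 134, against 81.0 to 85.2 on the other 3 arrays (gap share 0.8713), and this array also had the far-out Actb 3′ to 5′ ratio of 1.60. Ddc in KO CCI medulla 4 read 273, against 374 to 382 (0.9702). En1 in control sham medulla 3 read 29.1, against 7.57 to 9.09 (0.8585). Aldh1a1 in control sham midbrain 3 read 2195, against 1964 to 2010 (0.9603), and the same array held the highest Slc6a3 and Th values. Pitx3 in control CCI medulla 2 read 28.9, against 35.9 to 41.9 (0.8537).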

How the results depend on the processing

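The count of 8 of 10 probe sets for midbrain against medulla was 6 to 8 in the other settings and 8 in each of 32 fits without 1 array. Within the first array code the counts per group of mice were 3 (KO CCI), 4 (KO sham), 3 (control CCI) and 3 (control sham), against 6, 7, 6 and 6 with all arrays. That fit holds fewer arrays. Without 1 array in turn they were 5 to 6, 6 to 8, 6 and 5 to 6. All counts of 0 for genotype, CCI and interactions stayed 0 in every setting run. With the title number, and with the animal, as a replicate block the regional count was 8 and the midbrain genotype count (title number) 0, and the replicate block changed no other count except KO sham mice with the animal (8, against 7). For correlations with Slc6a3 the count of 0 was 0 to 1 without 1 array in turn, through Drd2.

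Values near 0 changed sign, and the cause was not tested. For genotype in midbrain (KO minus control), within the first array code, Slc6a3 read 0.19, Th 0.048, Ddc 0.0026, En1 0.093 and Drd2 0.074. Within the second code the dimmer Nr4a2 probe set read -0.24 and Pitx3 -0.12. With the code as a block that Nr4a2 set read -0.036 and En1 0.0018, and with array weights Ddc read 0.00086 and the Nr4a2 set -0.026. Without KO sham midbrain 2 and 4 Ddc read 0.038 and the Nr4a2 set -0.045, and the regional difference of the brighter Nr4a2 set read 0.0055. Without 1 array in turn the genotype values were -0.068 to 0.042 for Slc6a3, -0.075 to 0.0012 for Ddc, -0.084 to 0.072 for the dimmer Nr4a2 set and -0.020 to 0.085 for Ret.

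Correlations with Slc6a3 that turned were Nr4a2 at 0.024 without removal of group means, 0.0030 with a pseudocount of 1 and 0.24 without KO sham midbrain 2 and 4, Ret at 0.42 without those arrays, and Pitx3 at -0.039 with median centring and -0.0066 with a pseudocount of 1. Without 1 array in turn r was -0.0215 to 0.44 for Th, -0.0052 to 0.27 for Ddc, -0.13 to 0.091 for Nr4a2, -0.11 to 0.23 for Pitx3, -0.074 to 0.22 for Aldh1a1, -0.15 to 0.23 for En1, -0.39 to 0.37 for Ret and 0.43 to 0.74 for Drd2. Dim probe sets (En1, Pitx3, and Slc6a3 in medulla) are limited by signal over background.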

Other observations

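Genes of other cell types and neighbouring regions were also counted, where 10.5% of all probe sets were higher and 10.9% lower in midbrain. Of 7 thalamic genes 4 were higher in midbrain (median 0.30), led by Tcf7l2 at 3.36, and of 8 genes of the red nucleus, tectum and other midbrain neurons 4 were higher and 1 lower, with Tal1 at 1.45. Of 8 striatal and forebrain genes 4 were higher and 2 lower (Bcl11b at 0.94, Penk at -0.80). Of 10 hypothalamic genes 1, Hdc, was higher at 0.40, a count near the share of all probe sets. Of 14 hindbrain genes Hoxb5, Hoxa5 (-4.07), Hoxb6 (-2.81) and Hoxc4 (-2.72) were the lowest in midbrain. Choroid plexus genes were lower in midbrain in 6 of 7, with Ttr at -2.93 and Kcne2 at -2.38, and Otx2 on that list was higher. Ttr spanned 181 to 5211 units on the midbrain arrays and 936 to 9689 on the medulla arrays.

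Glial, cerebellar and pan-neuronal genes were counted in the same way. Of 9 oligodendrocyte and myelin genes 7 were lower in midbrain (median -0.20), of 10 astrocyte genes 1 was higher and 6 lower (Gfap at -0.73), and of 8 cerebellar genes 4 were lower (Gabra6 at -1.23). Of 16 pan-neuronal genes 3 were higher and 6 lower, with Syt1 at 0.87 and the neurofilament Nefh at -0.86. Of 10 microglia and macrophage genes and 2 red blood cell genes 0 passed in limma's test.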
